A study of Homo sapiens with 3 samples.

Results

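The library described here holds the RNA of HaCaT cells that received a control siRNA, and it is 1 of 3 libraries of the series. HaCaT is an immortalized human keratinocyte line. The labels give the genotype of these cells as WT and the siRNA dose as 10 nM, delivered with a lipid reagent. The other 2 libraries, each with a different siRNA against the splicing factor SRSF5, were not analysed here. There is 1 control library and no replicate, so no value below has a culture-to-culture error and no test was made. All genes of this library were taken: each gene was given the level of its highest transcript in FPKM (reads scaled by transcript length and library depth) and ranked, which gave 60471 gene names, 19703 of them protein-coding.

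Keratinocytes line the epidermis and other stratified epithelia. Basal cells hold on to the basement membrane through hemidesmosomes and make the keratin pair KRT5 and KRT14, and cells that leave the basal layer switch to KRT1 and KRT10 and then build a cornified envelope. Simple and glandular epithelia make KRT8, KRT18, KRT19 and KRT7 instead, and secretory cells of the airway make secretoglobins, mucins and antiprotease proteins.

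The control library listed 247012 transcripts, of which 226830 lay on the main chromosomes and entered the ranking. The FPKM multiplied by the length was a whole multiple of the same step in 100% of values, after rounding (tolerance 0.05). In genes with 1 transcript, 40.6% of these base counts were multiples of 100 and 0.456% were multiples of 99, so 100 bases are called a read equivalent here. Summed over the largest transcript of each gene, the library held 18319682 read equivalents, and 1 read equivalent in a transcript of 1000 bases is 0.0224 FPKM. The 95% intervals below are exact Poisson intervals on read equivalents. They cover counting error only, and they treat reads as independent. PCR copies are not independent molecules, so these intervals may be too narrow. Whether the reads were paired is not known, and if they were, that may narrow the intervals further. How a read that falls in several transcripts of a gene was counted is not given, and it was not tested. A short transcript can stand above the full-length one. If such a read was counted in each transcript, values are smaller than a usual FPKM. If it was divided among them, genes with many listed transcripts would stand too low beside genes with 1. Levels are compared here only within this library and per length, and for many genes the value of the longest transcript is given beside the highest. The targeted gene SRSF5 stood at 7.81 FPKM (95% interval 6.76 to 8.98, rank 3842), with 2.67 FPKM in its longest transcript.

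At 1 FPKM or more stood 11282 of 60471 genes (18.7%), and 9338 of 19703 protein-coding genes (47.4%). At 10 FPKM or more stood 13.9% of the protein-coding genes, and 21.4% of them were listed at 0. The median protein-coding gene had 0.768 FPKM, and 229 genes reached 100 FPKM. These shares are the background against which the counts of each gene list are read.

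The most abundant RNAs were mitochondrial. All of the 10 highest genes were encoded in the mitochondrial genome, and together these 10 held 40.4% of the summed gene level. MT-CO2, a subunit of cytochrome c oxidase, led with 20216 FPKM, followed by the large ribosomal RNA MT-RNR2 with 19889 FPKM and MT-CO1 with 18826 FPKM. The ATP synthase subunit MT-ATP6 stood at 14740 FPKM and MT-CO3 at 10623 FPKM. The 37 mitochondrial genes held 33.3% of the read equivalents of the largest transcripts and 45.5% of the summed level. Nuclear pseudogene copies of the mitochondrial genome also ranked high. MTATP6P1 on chromosome 1 had 3606 FPKM and shares 46.7% of its 50-base windows with other annotated genes, so reads of the mitochondrial gene and of this copy cannot be told apart with certainty.

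Among nuclear protein-coding genes EEF2, SCD, S100A11, SCGB1A1 and HSP90AA1 had the highest levels. SCD, the stearoyl-CoA desaturase that makes monounsaturated fatty acids, stood at rank 16 with 2023 FPKM (95% interval 2017 to 2028). It has a single listed transcript of 5245 bases and held 473022 read equivalents, so its level does not depend on the choice of transcript. The elongation factor EEF2 was listed above it at 2094 FPKM, but in a transcript of 218 bases. Its longest transcript had 665 FPKM, below SCD. S100A11, a calcium-binding S100 protein of epithelial cells, had 1379 FPKM (1365 to 1394) and 1368 FPKM in its longest transcript. HSP90AA1, a chaperone, had 1124 FPKM and 584 FPKM in the longest. The actin-binding peptide TMSB10 had 850.3 FPKM (838 to 863) in its only transcript.

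Iron storage and redox genes followed. The ferritin light chain FTL had 544 FPKM (537 to 551). The heavy chain FTH1 had 936 FPKM in its highest and 499 FPKM in its longest transcript, and 42.9% of its windows recur in other genes. All 21 genes of the ferritin, redox and glutathione list reached 1 FPKM, with a median of 58.2 FPKM. HMOX1, which breaks down heme, stood at 235 FPKM and GSTP1, a glutathione transferase, at 222 FPKM and at 64.4 FPKM in its longest transcript. Of 85 ribosomal protein genes found by a pattern of their names 81 reached 1 FPKM, and 23 were among the 100 highest genes. Their median was 119 FPKM. The pattern left out RPL36AL, which had 375 FPKM and rank 51, so these counts are not complete.

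**Figure D1:**
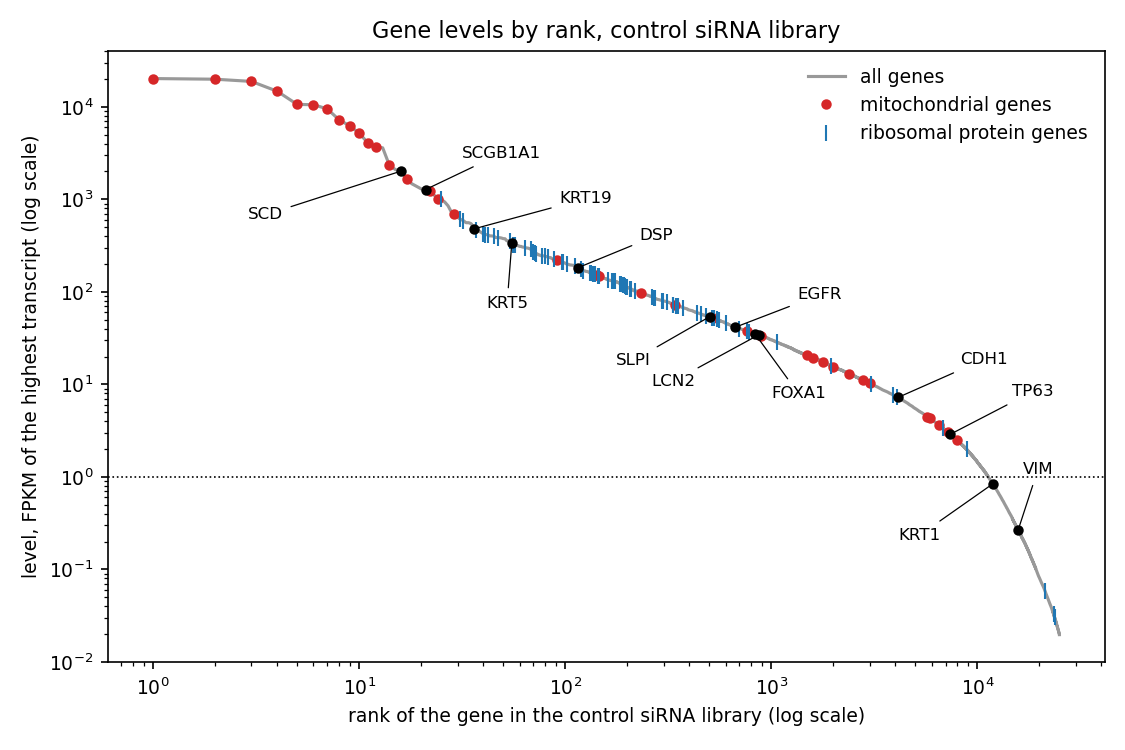
FPKM of the highest transcript of each gene (vertical, log scale) against its rank in the control siRNA library (horizontal, log scale). Mitochondrial genes (red) fill the 10 highest ranks. SCD and SCGB1A1 lie at ranks 16 and 21 with 2023 and 1276 FPKM, and KRT1 and VIM lie below the dotted line at 1 FPKM.

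Some of the abundant nuclear genes hold a TATA-like sequence just upstream of their start that most promoters lack. The 100 bases upstream of 8 genes are shown, read 5′ to 3′ on the gene's strand from RefSeq (GRCh38.p14). These 8 were picked by hand as examples and do not show how common the sequence is. SCGB1A1, KRT14 and KRT19 had no entry among the promoter sequences used. Capitals mark TATAA or ATAAA, alone or overlapping, where it begins 35 to 25 bases before the start. EEF2 lies at chr19:3985464-3985563 on the minus strand, TMSB10 at chr2:84905556-84905655 on the plus strand and FTL at chr19:48965209-48965308 on the plus strand. KRT5 lies at chr12:52520395-52520494 and KRT4 at chr12:52814117-52814216, both on the minus strand, and LCN2 at chr9:128149353-128149452 on the plus strand. SFN at chr1:26863049-26863148 (plus strand) and S100A11 at chr1:152037005-152037104 (minus strand) hold no match in that window.
EEF2: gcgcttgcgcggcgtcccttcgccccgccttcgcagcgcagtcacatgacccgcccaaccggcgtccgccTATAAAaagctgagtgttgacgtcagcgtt
TMSB10: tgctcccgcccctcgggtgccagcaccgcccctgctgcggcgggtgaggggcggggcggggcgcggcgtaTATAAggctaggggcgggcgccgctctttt
FTL: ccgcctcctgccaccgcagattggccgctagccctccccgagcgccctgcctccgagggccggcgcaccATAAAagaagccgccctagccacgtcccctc
KRT5: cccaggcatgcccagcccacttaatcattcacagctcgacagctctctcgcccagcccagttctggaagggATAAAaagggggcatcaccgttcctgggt
KRT4: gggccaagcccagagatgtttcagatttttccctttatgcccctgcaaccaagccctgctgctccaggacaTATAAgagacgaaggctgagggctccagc
LCN2: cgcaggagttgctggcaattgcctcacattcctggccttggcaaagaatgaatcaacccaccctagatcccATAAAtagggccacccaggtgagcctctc
SFN: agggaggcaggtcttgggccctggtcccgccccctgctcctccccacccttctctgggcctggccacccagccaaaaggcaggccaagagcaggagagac
S100A11: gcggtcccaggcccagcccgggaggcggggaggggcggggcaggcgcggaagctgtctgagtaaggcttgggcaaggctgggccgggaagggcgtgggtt

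The match was searched on the gene's strand only, and TATAA and ATAAA overlap in TATAAA. It was present in 1591 of the 27305 promoters of the table (5.83%) and in 264 of the 7374 promoters of nuclear protein-coding genes at 1 FPKM or more (3.58%). Of the 100 highest nuclear protein-coding genes 76 had a promoter in the table, and 16 of these (21.1%) held the match. All 10 stratified keratin promoters in the table held it, as did 13 of 28 secretory gene promoters (46.4%). These keratin promoters had a median of 2 CpG dinucleotides in the 250 upstream bases, against 22 for all nuclear protein-coding genes at 1 FPKM or more. A match is a description of the letters and not evidence of a factor bound there.

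The label was set beside cell type markers. They were chosen with earlier results of these data known, so this is not an independent check of the label. All 14 keratinocyte markers reached 1 FPKM, against 47.4% of all protein-coding genes. They ran from TP63 at 2.89 FPKM to SFN at 402 FPKM, with a median of 52.5 FPKM. SFN (14-3-3 sigma), an epithelial cell cycle checkpoint protein, has a single transcript, and its interval was 397 to 407 FPKM. Of 11 markers of secretory epithelium 7 reached 1 FPKM, with a median of 2.28 FPKM. In the full list of 46 secretory genes 17 did (37%), against 47.4% of all protein-coding genes. Of 69 markers of other cell types 3 did: the myelin gene MBP (4.71 FPKM), the leukocyte plastin LCP1 (1.24 FPKM) and the smooth muscle actin ACTA2 (1.06 FPKM). The MBP level came from a 4800-base transcript, and the longest MBP transcript had 0.0194 FPKM.

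The defining genes of other skin cells were at or near 0. None of 11 fibroblast markers reached 1 FPKM, and the highest was the collagen chain COL1A1 at 0.645 FPKM (0.444 to 0.906). Of 9 melanocyte markers 7 were listed at 0, among them the pigment enzymes TYR and DCT. A count of 0 allows up to 0.0326 FPKM for TYR and 0.0133 FPKM for DCT, taking 3 read equivalents as the limit. None of 9 endothelial markers reached 1 FPKM, and the adhesion gene PECAM1 stood at 0.00329 FPKM. The hemoglobin gene HBB was listed at 0, which allows up to 0.0892 FPKM.

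Keratin RNA in this culture was both of the stratified and of the simple epithelial kind. The basal pair KRT5 and KRT14 made up 56% of the summed level of the stratified keratins. KRT19, a keratin of simple epithelia and of basal cells in some stratified ones, was higher than either of the pair. Of the suprabasal pair of the epidermis, KRT10 was at a moderate level and KRT1 was under 1 FPKM. The levels summed to 1278 FPKM over 23 stratified keratins and to 935 FPKM over 5 simple keratins, a ratio of 0.732 of simple to stratified.

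Among the stratified keratins, 13 of 23 reached 1 FPKM (56.5%) and 8 reached 10 FPKM, against 47.4% and 13.9% of all protein-coding genes. KRT14 had 382 FPKM (376 to 389) in a 710-base transcript and 226 FPKM in its longest. KRT5 had 334 FPKM (330.5 to 338) in a transcript of 2238 bases, which is also its longest. The order of these partners therefore turns with the transcript read: KRT5 was at 0.874 times KRT14 (0.856 to 0.892) by the highest and at 1.48 times (1.45 to 1.51) by the longest transcripts. KRT15, a further basal keratin, had 59 FPKM and 16.7 FPKM in its longest transcript.

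KRT13 and KRT4 are the suprabasal keratins of mouth and oesophagus and not of epidermis. KRT13 had 161 FPKM (156 to 166) and KRT4 had 109 FPKM (105 to 113), and their longest transcripts had 92.9 and 78.5 FPKM. Together they summed to 270.1 FPKM, against 25.8 FPKM for KRT1 and KRT10 of the epidermis. KRT10 accounted for nearly all of the latter, with 24.9 FPKM (23 to 26.9), and its longest transcript had 8.52 FPKM. KRT1 stood at 0.839 FPKM (0.522 to 1.28), so KRT5 was 398-fold above KRT1 (265 to 654). KRT14 was 15.3-fold above KRT10 (14.2 to 16.6) by the highest and 26.5-fold above it (24.7 to 28.5) by the longest transcripts.

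The keratins of wounded and hyperproliferative epidermis were unequal. KRT6A had 143 FPKM (136 to 151), but 63.5% of the windows of its highest transcript recur in other genes, so its split from KRT6B and KRT6C is uncertain. KRT6C had 7.92 FPKM and KRT6B 2.74 FPKM. KRT17 had 42.9 FPKM (40.4 to 45.5) and 21.1 FPKM in its longest transcript, and KRT16, the usual partner of KRT6A, had 3.05 FPKM (2.53 to 3.63). KRT17 was 14.1-fold above KRT16 (11.7 to 17). KRT9 of palms and soles had 0.766 FPKM, and KRT24 was listed at 0, which allows up to 0.0357 FPKM.

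Of 5 simple keratins 4 reached 10 FPKM. KRT19 stood at 479 FPKM (472 to 486) and at 431 FPKM in its longest transcript, and was 1.25-fold above KRT14 (1.22 to 1.28). KRT8 had 217 FPKM (208 to 225) in a 250-base transcript, with 37.8% of its windows in other genes, and 55.5 FPKM in its longest. Its partner KRT18 had 58.8 FPKM (55.7 to 62) and 37.6 FPKM in its longest. KRT7 had 181 FPKM (174 to 188) in a transcript with 35.4% of its windows in other genes, and 119.8 FPKM in its longest. KRT20 of the gut lining stood at 0.145 FPKM. In the order of all keratins by their highest transcripts, KRT15 and KRT18 did not differ beyond their intervals, nor did KRT16 and KRT6B, KRT6B and KRT80, or KRT1 and KRT9.

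**Figure D2:**
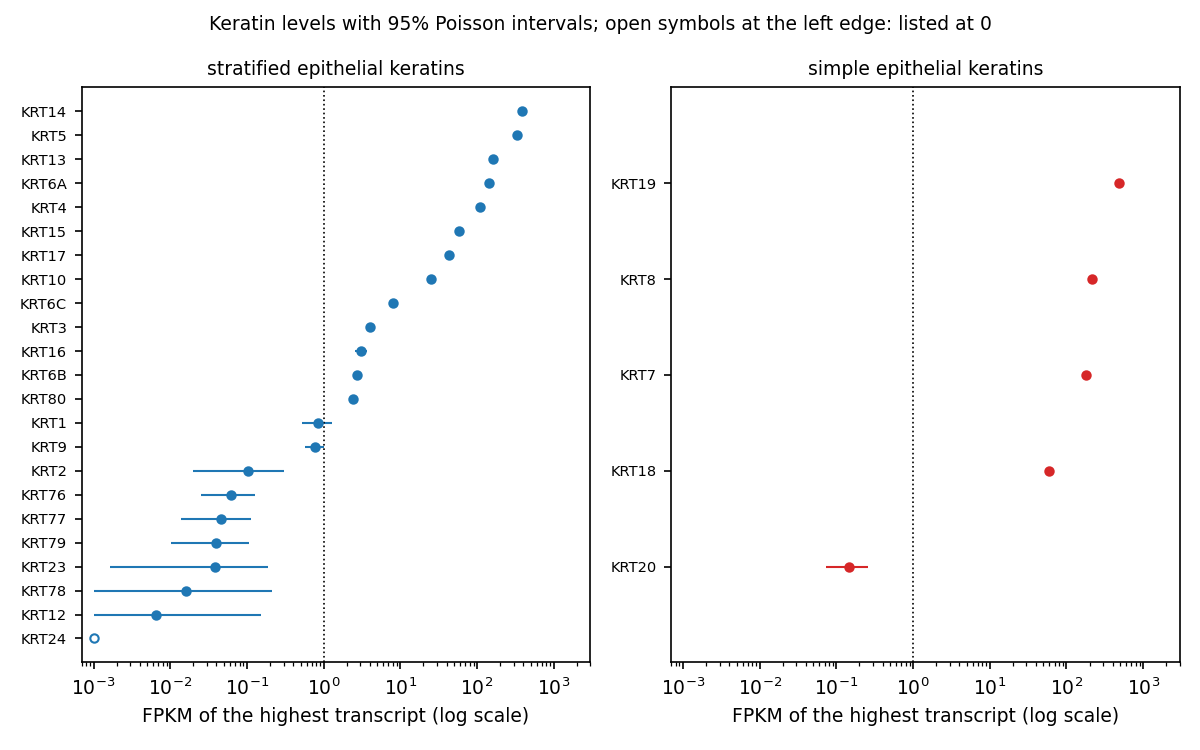
FPKM of the highest transcript (horizontal, log scale) of each stratified (left) and simple (right) keratin, with 95% Poisson intervals and a dotted line at 1 FPKM. KRT19 at 479 FPKM is above KRT14 at 382 FPKM, and KRT1 and KRT9 lie below 1 FPKM.

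Filament genes of mesenchymal and smooth muscle cells were low. The intermediate filament gene of mesenchymal cells, VIM, stood at 0.266 FPKM, and the smooth muscle gene TAGLN at 0.0885 FPKM. The membrane linker MSN was 491-fold above VIM (327 to 790.3) by the highest and 819-fold above it (524 to 1359) by the longest transcripts. The beta-actin gene ACTB had 298 FPKM (292 to 304) and 128 FPKM in its longest transcript.

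Most transcription factors of the epidermal program were present at low to moderate levels. Of 28 such factors 21 reached 1 FPKM and 8 reached 10 FPKM, against 47.4% and 13.9% of all protein-coding genes, and none was listed at 0. KLF5, a factor of proliferating epithelia, led with 71.1 FPKM in a 130-base transcript and had 19.2 FPKM in its longest. SOX15 had 30.1 FPKM (28.5 to 31.7) and GRHL2, a regulator of epithelial junctions, had 10.8 FPKM. TP63, the defining factor of stratified epithelia, stood at 2.89 FPKM and at rank 7392. The differentiation gene HOPX was lowest at 0.00756 FPKM.

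Of 38 factors listed here under other lineages, 4 reached 1 FPKM (10.5%, against 47.4% of all protein-coding genes). A place in this list does not mean that a factor is absent from keratinocytes. FOXA1, a pioneer factor of glandular epithelia, stood at 35.3 FPKM (32.6 to 38.2) and at 17.9 FPKM in its longest transcript. FOXA1 was 12.2-fold above TP63 (10.3 to 14.6) by the highest and 7.15-fold above it (6.53 to 7.86) by the longest transcripts. SNAI2 had 3.16 FPKM, SOX2 had 2.46 FPKM and TWIST2 had 1.14 FPKM. The median of these 38 factors was 0.00965 FPKM and 17 were listed at 0. The lung factor NKX2-1 stood at 0.0613 FPKM, and the factor of ciliated cells, FOXJ1, was listed at 0.

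Genes of the cornified envelope and of late differentiation were mostly low. Of 36 such genes 12 reached 1 FPKM (33.3%) and 2 reached 10 FPKM, against 47.4% and 13.9% of all protein-coding genes. The median of the 36 was 0.177 FPKM. Of the 36, 9 were listed at 0, as were 21.4% of all protein-coding genes. The envelope scaffold PPL led with 40.4 FPKM (39.5 to 41.4), and its partner EVPL had 8.49 FPKM. The cross-linked envelope precursors SPRR1A, SPRR1B and IVL had 16.3, 8.34 and 6.29 FPKM. PPL was 6.42-fold above IVL (5.91 to 7).

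The late genes lay lower still. TGM1, the transglutaminase that cross-links the envelope, had 0.456 FPKM. Filaggrin (FLG) had 0.179 FPKM. Loricrin (LOR) was listed at 0, which allows up to 0.054 FPKM, and KRTDAP was listed at 0 as well.

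All 22 proliferation genes reached 1 FPKM and 17 reached 10 FPKM, with a median of 14.7 FPKM. Cyclin D1 (CCND1) had 139 FPKM (138 to 141) and MKI67, the antigen of cycling cells, had 96.3 FPKM (95.5 to 97.2). The lowest was the mitotic kinase BUB1 at 4.42 FPKM. Among the cell cycle inhibitors, CDKN2A had 7.72 FPKM and CDKN1A had 2.74 FPKM.

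**Figure D3:**
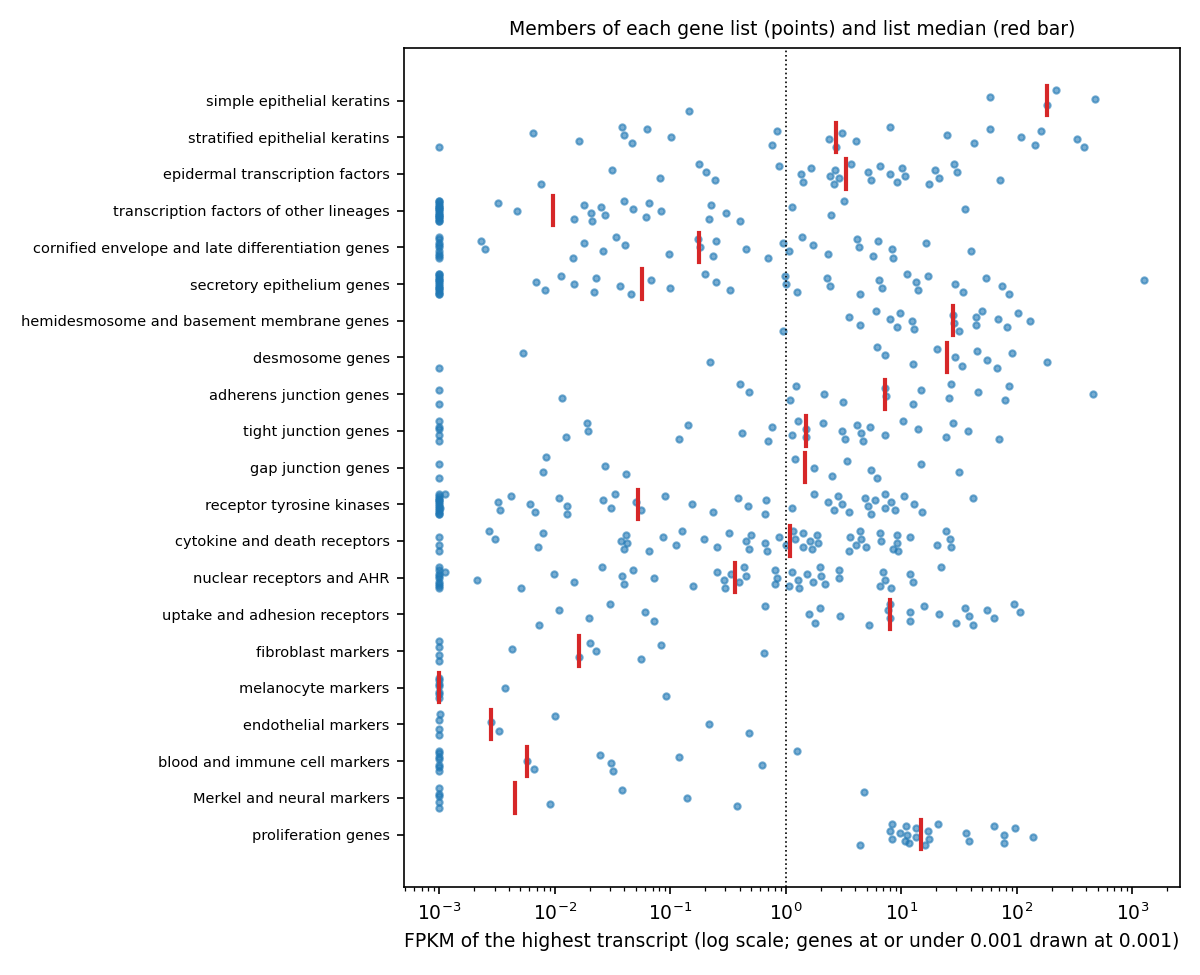
FPKM of the highest transcript (horizontal, log scale) of the members of 21 gene lists, each point 1 gene, with the list median as a red bar and a dotted line at 1 FPKM. The medians are 181 FPKM for simple keratins, 28 FPKM for hemidesmosome genes, 14.7 FPKM for proliferation genes and 0.00965 FPKM for transcription factors of other lineages.

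Genes of attachment to the basement membrane were nearly all present. Of 19 hemidesmosome and basement membrane genes 18 reached 1 FPKM (94.7%, against 47.4% of all protein-coding genes). Of the 19, 12 reached 10 FPKM, and the median of the list was 28 FPKM. LAMB3 and LAMA3 are chains of the laminin that anchors basal keratinocytes. LAMB3 had 82.6 FPKM (79.4 to 85.8) and LAMA3 had 12.3 FPKM (11 to 13.8), so LAMB3 was 6.7-fold above LAMA3 (5.96 to 7.58). Their longest transcripts had 47.4 and 5.39 FPKM. The laminin chain LAMC1 had 129 FPKM in a 782-base transcript and 47 FPKM in its longest.

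The laminin receptor of hemidesmosomes is the integrin pair ITGA6 and ITGB4, which had 44.6 FPKM (42.6 to 46.6) and 31.6 FPKM (29.5 to 33.8). The hemidesmosome collagen COL17A1 had 49.8 FPKM (47 to 52.7). In the longest transcripts ITGA6, ITGB4 and COL17A1 had 28.2, 15.7 and 25.1 FPKM. ITGB1, the common partner of many integrins, had 103 FPKM and 38.8 FPKM in its longest transcript. Nidogen, NID1, was the lowest of this list at 0.943 FPKM. Of 16 other integrins 8 reached 1 FPKM (50%, against 47.4% of all protein-coding genes). The highest was the collagen receptor chain ITGA2 at 27.1 FPKM (26.6 to 27.7).

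Desmosomes bind keratin filaments of neighbouring cells together. Of 14 desmosome genes 11 reached 1 FPKM (78.6%, against 47.4% of all protein-coding genes). The plaque protein DSP had 182 FPKM (180.3 to 183) in a full-length transcript of 9697 bases. The desmoglein of simple and basal cells, DSG2, had 90.5 FPKM (89.4 to 91.7) and DSG3 of basal epidermis had 55.2 FPKM (54.3 to 56.1), a ratio of 1.64 (1.61 to 1.68) that was the same in the longest transcripts. The desmoglein and desmocollin of upper epidermal layers were the lowest: DSG1 was listed at 0, which allows up to 0.00936 FPKM, and DSC1 had 0.00531 FPKM. The linkers JUP, PKP3 and PKP1 had 45.2, 33.8 and 20.4 FPKM, and 19.4 FPKM was listed for the longest transcript of PKP3.

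Adherens junction genes were spread over a wide range. Of 19 such genes 14 reached 1 FPKM (73.7%) and 8 reached 10 FPKM, against 47.4% and 13.9% of all protein-coding genes. The median of the list was 7.21 FPKM. The epithelial adhesion molecule EPCAM had 86.1 FPKM (83 to 89.3) and 52.9 FPKM in its longest transcript. P-cadherin (CDH3), the cadherin of basal cells, had 79.8 FPKM (76.4 to 83.4). E-cadherin (CDH1), the common epithelial cadherin, had 7.21 FPKM (6.42 to 8.06). CDH3 was thus 11.1-fold above CDH1 (9.81 to 12.5) by the highest transcripts and 4.3-fold above it (4.04 to 4.57) by the longest. N-cadherin (CDH2) had 2.15 FPKM. Beta-catenin (CTNNB1), which links cadherins to actin, had 1.23 FPKM (0.837 to 1.75), below alpha-catenin (CTNNA1) at 26.8 FPKM. Their longest transcripts had 0.484 and 8.02 FPKM.

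Of 31 tight junction genes 18 reached 1 FPKM (58.1%, against 47.4% of all protein-coding genes) and 6 reached 10 FPKM. The claudins seal the space between cells, and 3 of them led. CLDN1, the claudin of the epidermal barrier, had 70.6 FPKM (66.9 to 74.5), CLDN7 had 38.1 FPKM (36.1 to 40.3) and CLDN4 had 28.2 FPKM (27 to 29.4). CLDN1 was 1.85-fold above CLDN7 (1.71 to 2). In the longest transcripts CLDN1, CLDN7 and CLDN4 had 47.5, 23.6 and 12.4 FPKM. Occludin (OCLN) had 10.4 FPKM, with 56.1% of the windows of that transcript in other genes, and 2.51 FPKM in its longest transcript. The scaffold TJP1 had 3.07 FPKM, and CLDN18 of stomach and lung was listed at 0.

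The epidermal connexin GJB5 was the highest of the gap junction genes. It had 31.7 FPKM (30.3 to 33.2). GJB2, the connexin of hyperproliferative epidermis, had 5.51 FPKM, so GJB5 was 5.76-fold above GJB2 (5.24 to 6.34). GJA1, the most widespread connexin, had 3.41 FPKM, and GJB6 had 0.0413 FPKM. Of 14 genes 8 reached 1 FPKM (57.1%, against 47.4% of all protein-coding genes).

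**Figure D4:**
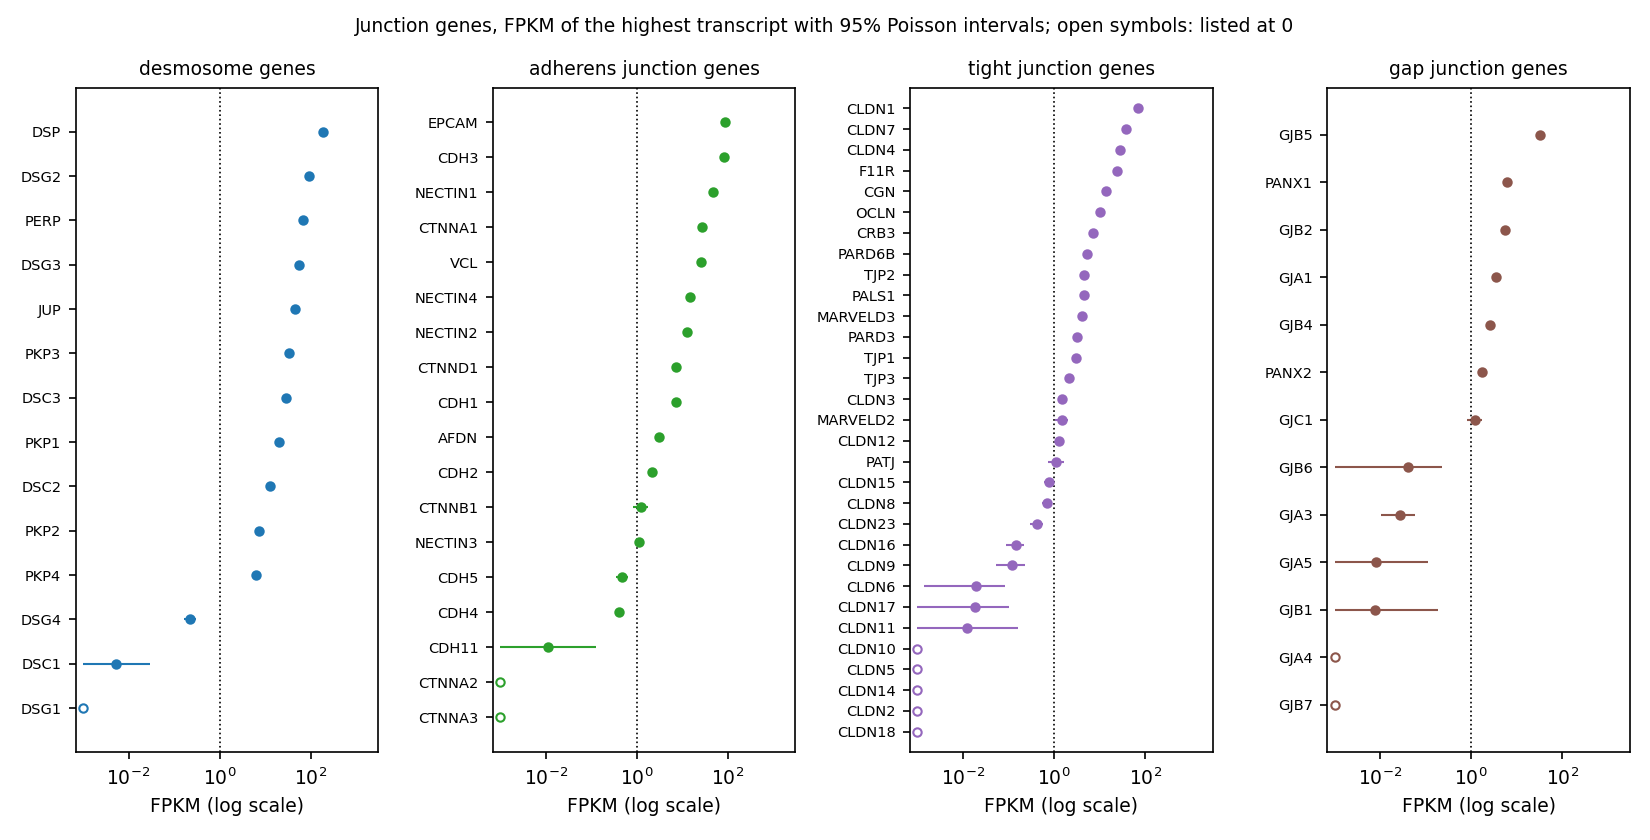
FPKM of the highest transcript (horizontal, log scale) of desmosome, adherens, tight and gap junction genes, 1 panel each, with 95% Poisson intervals and a dotted line at 1 FPKM. DSP (182 FPKM), CLDN1 (70.6 FPKM) and GJB5 (31.7 FPKM) lead their panels, CDH3 (79.8 FPKM) is above CDH1 (7.21 FPKM), and DSG1 is listed at 0.

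The secretory genes held 1 very abundant RNA. SCGB1A1 (ENSG00000149021.7, chromosome 11, 62405103 to 62423195, plus strand), which encodes the club cell secretoglobin of the airway, stood at 1276 FPKM (1260 to 1292) and rank 21. Its level rested on 25199 read equivalents, and its longest transcript had 1204 FPKM. Among protein-coding nuclear genes, EEF2, SCD and S100A11 stood higher. The other secretoglobins were far lower: SCGB3A1 was listed at 0, which allows up to 0.0942 FPKM, and SCGB2A2 was listed at 0, which allows up to 0.0516 FPKM.

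In all, 17 of 46 secretory genes (37%) reached 1 FPKM, 10 reached 10 FPKM and 15 were listed at 0. The share at 1 FPKM was under the 47.4% of all protein-coding genes. The chaperone CLU had 85.6 FPKM in a 303-base transcript and 24.4 FPKM in its longest. SCGB1A1 was 14.9-fold above CLU (14.1 to 15.8) by the highest and 49.4-fold above it (47.6 to 51.2) by the longest transcripts. The surface protease ST14 and its partner PRSS8, both also known from epidermis, had 74.4 FPKM (73.1 to 75.8) and 17 FPKM (16.2 to 18). The antiproteases SLPI and PI3 had 53.9 FPKM (51.1 to 56.8) and 13.4 FPKM (11.9 to 14.9). The iron-siderophore binder LCN2 had 34.3 FPKM (31.7 to 37).

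The mucus genes were at or near 0. MUC5AC was listed at 0, which allows up to 0.00386 FPKM, and MUC5B had 0.0225 FPKM. SPDEF, a factor of goblet cells, had 0.018 FPKM. The membrane mucins MUC16 and MUC1 had 2.43 FPKM (1.72 to 3.33) and 2.28 FPKM. The immunoglobulin transporter PIGR had 6.81 FPKM (5.45 to 8.4) in a 285-base transcript and 2.88 FPKM in its longest, and AGR2, an endoplasmic reticulum protein of mucus cells, had 6.39 FPKM.

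Of 21 antimicrobial and alarmin genes of skin 7 reached 1 FPKM (33.3%, against 47.4% of all protein-coding genes). The highest was the cytokine IL18 at 17.5 FPKM (16.1 to 19), with 9.25 FPKM in its longest transcript. The calprotectin partners were unequal, with S100A9 at 10.9 FPKM (9.68 to 12.3) and S100A8 at 0.156 FPKM (0.0301 to 0.468). S100A9 was thus 70.2-fold above S100A8 (22.4 to 323) by the highest and 149.8-fold above it (47.9 to 1448) by the longest transcripts, with few reads in S100A8. The defensin gene DEFB4A was listed at 0, which allows up to 0.177 FPKM.

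Receptor genes were described by class. Of 275 receptor genes in all classes 127 reached 1 FPKM and 33 reached 10 FPKM, with a median of 0.675 FPKM. These shares are near the 47.4% and 13.9% of all protein-coding genes, so the counts do not set receptors apart. Of 54 receptor tyrosine kinases 19 reached 1 FPKM (35.2%) and 13 were listed at 0. EGFR, the receptor that drives keratinocyte growth, led with 41.5 FPKM (40.9 to 42.1) in a transcript of 9905 bases. MET, the receptor of hepatocyte growth factor, had 15.1 FPKM (13.5 to 16.9), and EGFR was 2.74-fold above it (2.45 to 3.07) by the highest and 4.38-fold above it (4.21 to 4.56) by the longest transcripts. Within the EGFR family, ERBB3 had 5.44 FPKM (4.22 to 6.9), ERBB2 had 2.83 FPKM and ERBB4 had 0.0032 FPKM, so EGFR was 14.7-fold above ERBB2 (11.5 to 18.9) by the highest and 37-fold above it (32.6 to 42.1) by the longest transcripts. FGFR1 was listed at 0, which allows up to 0.0108 FPKM, and FGFR3 had 3.04 FPKM. KIT, the stem cell factor receptor of melanocytes, was listed at 0.

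Among cytokine and death receptors, 26 of 50 reached 1 FPKM (52%, against 47.4% of all protein-coding genes) and the median was 1.08 FPKM. The TRAIL receptor TNFRSF10A had 26.8 FPKM (24.3 to 29.5) and TNFRSF10B had 9.29 FPKM (8.8 to 9.79). TNFRSF21 had 26.4 FPKM (25.6 to 27.2), within the interval of TNFRSF10A, but stood above it by the longest transcripts, at 26.4 against 17.6 FPKM. The oncostatin M receptor OSMR had 24.2 FPKM (23.6 to 24.9), and the receptor chains for interferon gamma and for interleukin 17, IFNGR1 and IL17RA, had 12 and 8.48 FPKM, and 6.04 and 5.53 FPKM in their longest transcripts. Of 10 Toll-like receptors TLR2 (2.07 FPKM) and TLR3 (1.02 FPKM) reached 1 FPKM, and TLR4 had 0.0508 FPKM.

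Of 36 receptors of the TGF-beta, BMP, Notch, Wnt and Hedgehog pathways 22 reached 1 FPKM (61.1%, against 47.4% of all protein-coding genes). NOTCH1, which promotes keratinocyte differentiation, had 21.5 FPKM (21.1 to 22) and was 1.72-fold above NOTCH2 (1.67 to 1.78), which had 12.5 FPKM (12.2 to 12.8). NOTCH1 was 61.3-fold above NOTCH3 (31.7 to 132) by the highest and 156-fold above it (118 to 206) by the longest transcripts. The Wnt receptor FZD6 had 16.9 FPKM (15.9 to 17.9), with 10.5 FPKM in its longest transcript, and the R-spondin receptor LGR4 had 14.7 FPKM. The stem cell marker LGR5, a relative of LGR4, was listed at 0.

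Of 50 G protein-coupled receptors 20 reached 1 FPKM (40%, against 47.4% of all protein-coding genes). F2RL1, the protease-activated receptor that responds to trypsin-like proteases such as ST14, had 27.3 FPKM (26.4 to 28.2), and the thrombin receptor F2R had 9.01 FPKM. GPRC5A, an orphan receptor induced by retinoids, had 19.7 FPKM (18.3 to 21.1) and the adenosine receptor ADORA2B had 11.5 FPKM.

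Of 48 nuclear receptors, counted together with the aryl hydrocarbon receptor AHR, 18 reached 1 FPKM (37.5%, against 47.4% of all protein-coding genes). Of the 48, 9 were listed at 0, as were 21.4% of all protein-coding genes. The orphan receptor NR2F6 led with 21.9 FPKM (21 to 22.8). AHR had 12.7 FPKM in a transcript that lies wholly within the exons of another listed gene, and 4.65 FPKM in its longest transcript. The retinoid receptors RXRA and RARG had 11.8 FPKM (11.4 to 12.2) and 7.22 FPKM (6.16 to 8.4), with 4.41 FPKM in the longest RARG transcript. The glucocorticoid receptor NR3C1 had 1.99 FPKM (1.8 to 2.2), the vitamin D receptor VDR had 1.06 FPKM, and the estrogen receptor ESR1 was listed at 0, which allows up to 0.0104 FPKM. NR2F6 was 11-fold above NR3C1 (9.9 to 12.2).

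Uptake and adhesion receptors had the highest median of the receptor classes, 7.92 FPKM. Of 27 genes 20 stood at 1 FPKM or more (74.1%, against 47.4% of all protein-coding genes). The hyaluronan receptor CD44 had 106 FPKM (102 to 109.8) and 35.5 FPKM in its longest transcript. The syndecans SDC4 and SDC1 had 54.8 FPKM (53.5 to 56.2) and 38.5 FPKM (36.1 to 41), with 22 FPKM in the longest SDC1 transcript. The fatty acid receptor CD36 was the lowest at 0.00732 FPKM.

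**Figure D5:**
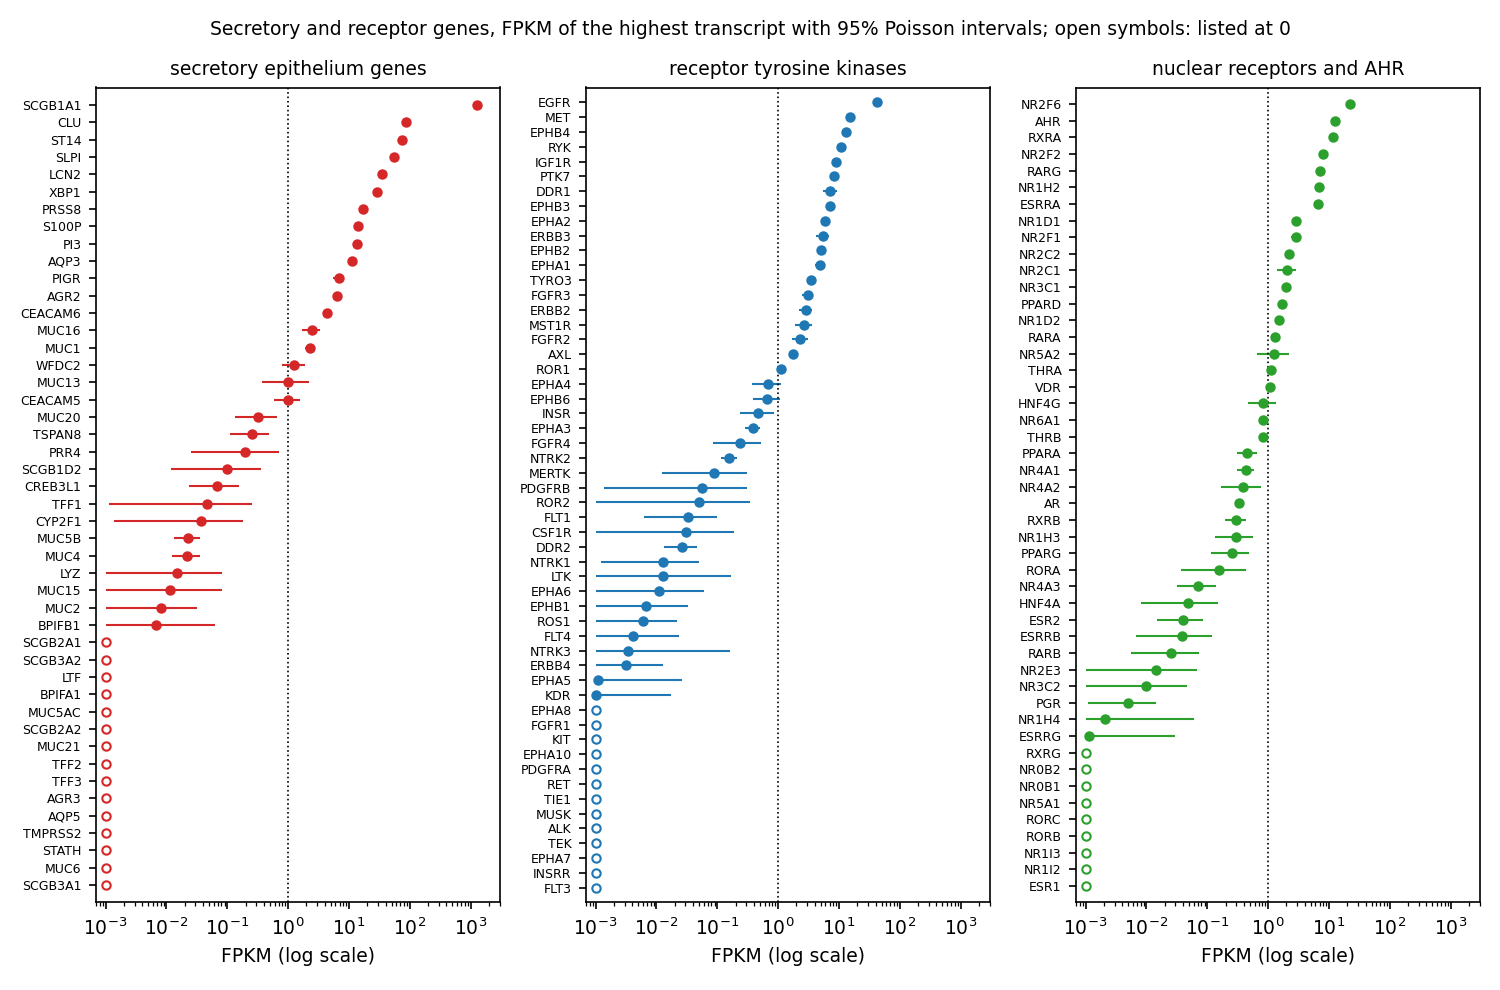
FPKM of the highest transcript (horizontal, log scale) of secretory genes, receptor tyrosine kinases and nuclear receptors with AHR, 1 panel each, with 95% Poisson intervals, open symbols for genes listed at 0 and a dotted line at 1 FPKM. SCGB1A1 at 1276 FPKM stands apart from CLU at 85.6 FPKM, EGFR leads the kinases at 41.5 FPKM and NR2F6 leads the nuclear receptors at 21.9 FPKM.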

How the data were processed

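Per the file headers, the authors deposited 1 FPKM value for every transcript of the library, beside its position, exons and length. Builds named in the submitters' processing notes are GRCm38, mm10 and GRCh38.p12, with no role stated. Which aligner and counter were used is not given in the sources used here. Coordinates of genes are as the files list them.

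Transcripts on chr chromosomes were kept, and the gene name is the transcript name without its final number. The highest transcript gave the level of the gene. Read equivalents were recovered from FPKM multiplied by length, and intervals are exact Poisson intervals (95%). Ratios of genes have exact binomial intervals. A level listed at 0 was given an upper limit of 3 read equivalents. The recovery was tested on simulated data. Copies were counted as 50-base windows shared with other genes in GENCODE release 29.

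The members and the gene lists were chosen with earlier results of these data known. Of 820 list entries 819 matched, 2 by an older symbol. Genes named are the 30 highest, the 15 highest that are neither mitochondrial nor ribosomal, the 6 highest and the lowest of each list, the highest of each transcript class, and any member of the keratin, factor, junction, secretory and receptor lists. Members of other lists named outside this rule (MSN, VIM, CDKN1A, S100A8, DEFB4A, TGM1, FLG and LOR) were chosen after their values were seen, as were the pairs set in ratios. Python 3.11.15, pandas 2.3.3, numpy 2.4.6, scipy 1.17.1 and matplotlib 3.10.9 were used. Other transcript choices, length minimums and thresholds were tried as alternatives. Some items are not reported here, by name or in the labelled figures, and remain in the counts and medians.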

Additional observations from a re-analysis of the deposited data

Results flagged for a closer look

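Signal was also present in entries outside the main chromosomes, which the ranking leaves out. On alternate and unplaced scaffolds 3154 of 20182 transcripts stood at 1 FPKM or more, and the highest was RPL41P2-202 at 165 FPKM. Of the gene names with such a transcript 364 also have an entry on a main chromosome and 79 do not. How reads were divided between such entries was not tested.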

How the results depend on the processing

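With no replicate, no library could be left out. No paired analysis was possible because the labels give the control library no replicate number and there is only 1 such library. The share of the summed level in the 10 highest genes (40.4%) was 16.1% with the sum over transcripts, 48.2% with the mean, 50.3% with the longest transcript, 42% and 45.6% with transcripts of at least 200 and 500 bases, 9.78% without mitochondrial transcripts, 41.6% without transcripts mostly inside another gene, and 46.3% with protein-coding transcripts, an alternative chosen after seeing the data. In the same order, the share of the 100 highest genes was 36, 66.8, 68.9, 59.5, 59.6, 26.5, 60.3 and 61.2%, and that of the 1000 highest was 65.4, 82, 83.1, 77.7, 77.5, 58.9, 78.8 and 79.6%. The ratio of simple to stratified keratins was 0.924 with the sum, 0.654 with the mean and 0.694 with the longest transcript. Markers of other cell types at 1 FPKM or more numbered 7 with the sum, 0 with the mean and 1 with the longest transcript, and 5 at 0.5 FPKM and 0 at 5 FPKM. At 5 FPKM, 5313 genes and 62 receptors passed. Of the summary values under an alternative 55 stayed close to the main value and 34 moved. Of the counts of list members 308 stayed within 1.5 times and 32 moved, and of the ranks of single genes 102 stayed within the counting interval and 336 moved. SCGB1A1 ranked 7 to 25, KRT19 19 to 42, KRT14 32 to 125, TP63 4238 to 7392 and CDH1 1524 to 4112. Low genes are limited by depth.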

Other observations

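Small RNA classes were listed but rest on short features. The Alu-derived RNA BCYRN1 had 246 FPKM in a 200-base feature, the signal recognition particle RNA RN7SL1 had 102 FPKM and RN7SK, which holds back transcription elongation, had 50.9 FPKM. The 75-base pseudogene AC090498.1 had 1474 FPKM. Fewer read equivalents lie behind such values than behind an equal FPKM in a long transcript.

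All 17 glycolysis genes reached 1 FPKM, with a median of 58.4 FPKM. GAPDH had 194 FPKM (191 to 198) and ENO1 had 100.1 FPKM, with 125 and 56 FPKM in their longest transcripts, while the muscle phosphofructokinase PFKM had 1.77 FPKM. In the highest GAPDH transcript 51.4% of the windows recur in other genes. The glucose transporter SLC2A1 had 122 FPKM in a 150-base transcript and 21.1 FPKM in its longest.

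The highest transcript of a protein-coding gene was often not a coding one. Of the protein-coding genes at 1 FPKM or more, it was a coding transcript in 5501 (58.9%), one of the class lncRNA in 1841 (19.7%), a retained intron in 1102 (11.8%) and a transcript marked for nonsense-mediated decay in 884 (9.47%). Its median length was 699 bases, against 3653 bases for the longest transcript of the same genes.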
